A study of Mus musculus with 75 samples.

Results

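A set of 10 genes of the urea cycle and of the periportal zone were followed through the livers of mice whose dams had been given tributyltin (TBT): Cps1, Nags, Slc25a15, Otc, Ass1, Asl, Arg1, Gls2, Hal and Sds. They were chosen by name, with earlier results of these data known. All 10 were found among the 55536 genes of the table and passed the filter on low counts in every comparison. TBT is an organotin compound that activates nuclear receptors, and it was given in the dams' drinking water up to weaning, for a daily intake of 0.5 mg per kg of body weight (3.07 µM). All mice were C57Bl/6 and, by the labels, male.

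Groups followed the labels. At 3 weeks there were 7 vehicle mice and 8 TBT mice. At 5 months there were 8 vehicle, 16 TBT low-risk and 10 TBT high-risk livers. At 10 months there were 6 vehicle livers, 5 TBT low-risk livers, 5 samples of uninvolved liver of TBT high-risk mice and 7 TBT tumors. The risk names refer to liver tumors, and the labels give neither how risk was assigned at 5 months nor which mice shared a dam. Whether mice of a group are littermates is therefore unknown, and p-values measure the spread between these samples.

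The liver turns ammonia into urea mainly in hepatocytes near the portal vein. In their mitochondria Cps1 joins ammonia and bicarbonate to carbamoyl phosphate, an enzyme that works only when bound by the N-acetylglutamate that Nags makes, and Otc moves that group onto ornithine to form citrulline. Slc25a15 carries ornithine in and citrulline out; Ass1 and Asl then build arginine in the cytosol, and Arg1 cuts it to urea and ornithine. Gls2 releases ammonia from glutamine in periportal mitochondria, Hal starts the breakdown of histidine, and Sds deaminates serine. Ammonia that escapes this zone is bound to glutamate by Glul in the last hepatocytes around the central vein.

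The libraries were of uneven quality, and those of uninvolved livers were deeper than the other 10-month groups. Total counts ran from 2.832 to 45.449 M (mega) per library. Libraries under 5 M counts, with over 35000 genes detected or with over 10% mitochondrial counts were 5-month high-risk 10 and 15, low-risk 16 and vehicle 9, a 3-week vehicle library of mouse 3, and the tumor-labelled vehicle library of 10 months, which entered no comparison. The 3-week TBT library 4 had 348.1 counts per M counts (CPM) of Xist, which female cells express. It had 7.08 CPM of 4 Y-linked genes, and both values went against the label male. Low-risk library 24 of 5 months had 84.6 CPM of Xist, which went against that label, but also 237.2 CPM of the Y-linked genes. Uninvolved livers 3 and 6 were summed because their counts lay far closer together (chi-square per gene 3.88) than the next pair of any group (15.31). All uninvolved libraries lay at 34.8 to 44.6 M counts and 24676 to 28715 genes detected. Low-risk libraries of 10 months held 26.4 to 33.5 M and 21663 to 22578 genes. Vehicles held 26.2 to 31.0 M and 21078 to 22006, and tumors 22.5 to 27.9 M and 22609 to 23868. The part of this split in the 10-month differences was not tested and cannot be told apart from the group. Of 8 hepatocyte markers in the table, none was at 0 in any group.

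Promoter sequence is shown for Otc and Nags, whose levels were lower at both ages in high-risk mice. It is also shown for Hal, which rose in vehicles from 3 weeks to 5 months. These are the 250 bases before the start of each gene on its own strand, from RefSeq on GRCm38.p6, at chrX:10252055-10252304 (Otc), chr11:102145263-102145512 (Nags) and chr10:93488518-93488767 (Hal), all on the plus strand and free of annotated exons. RefSeq entries were matched for 5 of the 10 genes. Capitals mark motif matches.

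Otc: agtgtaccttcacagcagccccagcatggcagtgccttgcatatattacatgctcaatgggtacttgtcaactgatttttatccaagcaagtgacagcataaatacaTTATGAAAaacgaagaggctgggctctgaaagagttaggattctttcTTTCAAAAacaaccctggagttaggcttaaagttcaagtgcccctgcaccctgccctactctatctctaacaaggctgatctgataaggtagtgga

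Nags: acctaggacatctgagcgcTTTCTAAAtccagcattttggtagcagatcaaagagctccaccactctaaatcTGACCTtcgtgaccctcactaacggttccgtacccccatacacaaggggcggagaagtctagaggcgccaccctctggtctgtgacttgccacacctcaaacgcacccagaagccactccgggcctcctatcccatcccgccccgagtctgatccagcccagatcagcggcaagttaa

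Hal: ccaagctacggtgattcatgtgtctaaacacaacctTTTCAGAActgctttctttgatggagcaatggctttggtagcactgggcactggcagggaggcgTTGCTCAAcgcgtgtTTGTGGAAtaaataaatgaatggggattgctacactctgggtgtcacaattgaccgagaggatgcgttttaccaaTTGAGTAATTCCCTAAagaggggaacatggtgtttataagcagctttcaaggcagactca

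Motifs were searched on both strands: TTNNGNAA, which C/EBP factors bind, TGACG, the core of the cAMP response element, CAAAGTCCA for HNF4, and AGGTCA, which many nuclear receptors bind. Otc held 2 matches to TTNNGNAA, Hal 5, and Nags 1 together with 1 match to AGGTCA (read on the minus strand), none of them overlapping. TGACG and CAAAGTCCA had no match in these windows. Among 27025 promoter windows of that length, TTNNGNAA was present in 36.9%, TGACG in 17.9%, AGGTCA in 13.8% and CAAAGTCCA in 0.381%. A match is only a run of letters.

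In the GRCm38 annotation the protein-coding genes lie at chr1:67123026-67231259 (Cps1), chr11:102145513-102149477 (Nags), chr8:22375551-22398597 (Slc25a15), chrX:10252305-10321024 (Otc) and chr2:31470207-31520672 (Ass1). Asl lies at chr5:130011258-130029247, Arg1 at chr10:24915221-24927484, Gls2 at chr10:128194457-128210004, Hal at chr10:93488768-93519304 and Sds at chr5:120476526-120483932. Slc25a15, Asl and Arg1 are on the minus strand. Counts are summed over all exons of a gene.

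Compared per length, as transcripts per M over protein-coding genes (TPM), the genes fell into a high and a low tier. In 10-month vehicles, Cps1 stood at 3665 ± 696.7 TPM (SD, n = 6), Ass1 at 2692 ± 468.8 and Arg1 at 1376 ± 207.2. The other members lay between 64.0 TPM (Nags) and 303.2 TPM (Otc). Otc at 303.2 ± 16.2 and Asl at 290.6 ± 66.7 did not differ beyond their spread. Nags, which makes an activator rather than an intermediate, had the lowest mean in every group.

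**Figure D1:**
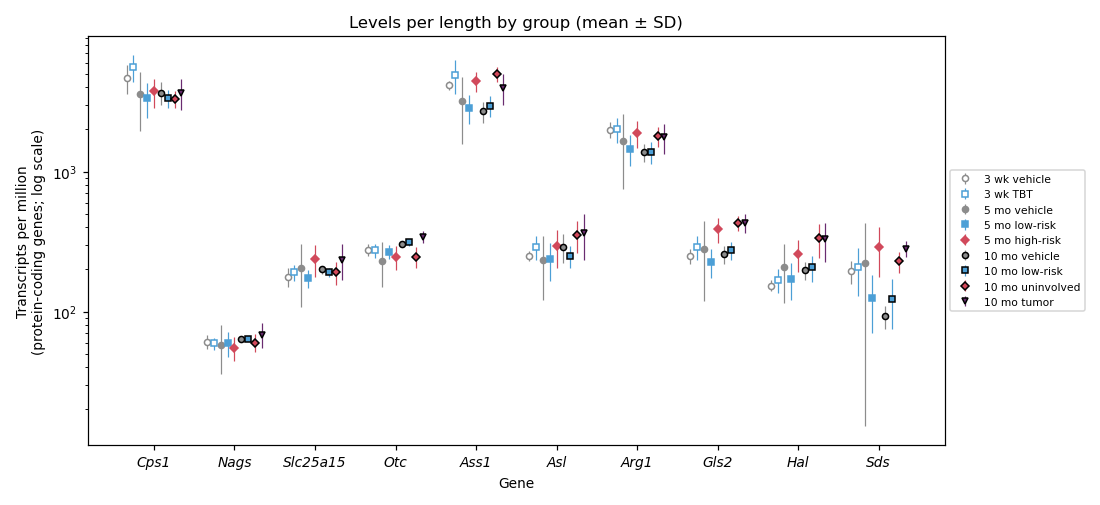
Mean level per length with SD (transcripts per M over protein-coding genes, log axis) of each gene in 9 groups, open symbols for 3 weeks, filled for 5 months and filled with a black edge for 10 months. Cps1, Ass1 and Arg1 form the upper tier, and mean Ass1 lies above mean Cps1 in high-risk livers, uninvolved livers and tumors.

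The balance between the entry enzyme Cps1 and the cytosolic enzyme Ass1 differed between groups. The ratio of their per-length levels is taken within a library and so does not depend on how libraries are scaled. In 10-month vehicles the ratio of Ass1 to Cps1 ran from 0.601 to 0.849 (median 0.770), and in low-risk livers from 0.815 to 0.987 (median 0.868). In uninvolved livers it ran from 1.25 to 1.757 (median 1.516), above every vehicle and low-risk liver, and in tumors from 0.950 to 1.254 (median 1.066). At 5 months the ranges overlapped, with 0.551 to 1.38 (median 0.853) in low-risk and 0.997 to 1.53 (median 1.131) in high-risk livers. The ratio was picked after its values were seen and was given no test.

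The level of Otc against Ass1 shifted as well. Its per-length level relative to Ass1 ran from 0.0930 to 0.129 in 10-month low-risk livers and from 0.0360 to 0.0651 in uninvolved livers, again with no overlap. Tumors, at 0.0612 to 0.120, spanned the space between them. This ratio sets Otc, lower in uninvolved livers, against Ass1, higher there, and was given no test. Relative to Cps1, Otc ran from 0.0838 to 0.108 in low-risk and from 0.0608 to 0.0987 in uninvolved livers, and the ranges overlapped. Summed CPM, scaled by TMM to correct for a few genes taking a larger part of a library, of the 5 cycle enzymes Cps1, Otc, Ass1, Asl and Arg1 was 11610 ± 2065 in low-risk livers (SD, n = 5) and 11360 ± 2017 in uninvolved livers (SD, n = 5), closer than the spread. As a share of TPM, which is not corrected in this way and divides by gene length, the sum was 0.825% ± 0.124 and 1.065% ± 0.111. Its direction thus depends on the measure, and the parts of scaling and of gene length were not separated. Within the summed TPM of these enzymes the part of Ass1 was 35.8% in low-risk and 46.7% in uninvolved livers, and that of Cps1 40.7% and 30.9%.

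At 5 months, high-risk livers held less Nags and Otc and more Sds than low-risk livers. These 3 of the 10 genes passed the test at an adjusted p under 0.05, against 38.9% of all 14773 genes tested (20.3% higher, 18.5% lower), so a share near the background. The median log2 fold change of the 10 genes was 0.003, beside -0.01 over all genes. Values from here on are CPM scaled by TMM, and log2 fold changes come from edgeR with the sequencing batch as a covariate. By their name the deposited counts had already been adjusted for batch (ComBat-seq), at settings not given. Fold changes within a batch are thus of adjusted counts.

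Nags ranged from 39.98 to 96.7 CPM (median 61.9) in 16 low-risk livers and from 28.97 to 54.1 CPM (median 49.3) in 10 high-risk livers. All 10 high-risk livers lay below the low-risk median, though the ranges overlapped. Nags was lower, its log2 fold change being -0.49 (SE 0.14, edgeR adjusted p = 0.0045). Within batch 1 (3 high-risk, 6 low-risk) the log2 fold change of Nags was -0.46 (SE 0.30, edgeR adjusted p = 0.435), and within batch 2 (7 and 10) it was -0.51 (SE 0.13, edgeR adjusted p = 0.0050).

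Otc ranged from 359.4 to 541.8 CPM (median 438.0) in low-risk livers and from 217.9 to 482.7 CPM (median 286.5) in high-risk livers. Of the 10 high-risk livers, 8 lay below every low-risk liver; the exceptions were high-risk 1 at 442.7 CPM and high-risk 22 at 482.7 CPM. Otc was lower, its log2 fold change being -0.50 (SE 0.11, edgeR adjusted p = 6.74e-04). The log2 fold change of Otc was -0.57 in batch 1 (SE 0.20, edgeR adjusted p = 0.122) and -0.46 in batch 2 (SE 0.15, edgeR adjusted p = 0.0233).

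Sds went the other way, with 27.3 to 160.2 CPM (median 72.8) in low-risk livers and 74.4 to 217.9 CPM (median 137.4) in high-risk livers. Every high-risk liver lay above the low-risk median. Sds was higher, its log2 fold change being 0.80 (SE 0.31, edgeR adjusted p = 0.038), with 0.64 in batch 1 (SE 0.69, edgeR adjusted p = 0.659) and 0.86 in batch 2 (SE 0.22, edgeR adjusted p = 0.0049). Of the exon bases of Sds, 21.2% lie opposite exons of Plbd2 and 8.32% opposite the antisense gene Gm15690. The strand setting of the counting is not given in the sources used here, so reads there cannot be told apart. Plbd2 had a log2 fold change of 0.08 (SE 0.08) and Gm15690 of 0.95 (SE 0.40, edgeR adjusted p = 0.056) at a mean of 1.41 CPM. Nags shares 15.6% of its exon bases with the antisense gene Gm11586, which averaged 0.501 CPM.

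The other 7 members did not pass the test in high-risk against low-risk livers. Their log2 fold changes were 0.39 (SE 0.17) for Gls2, 0.24 (SE 0.15) for Ass1, 0.23 (SE 0.17) for Hal, 0.05 (SE 0.13) for Slc25a15, -0.05 (SE 0.17) for Arg1, -0.09 (SE 0.17) for Asl and -0.24 (SE 0.15) for Cps1. Scaling to total counts moved the median of all genes to 0.30 and the split of called members from 1 higher and 2 lower to 5 higher and 0 lower. Under it Ass1, Slc25a15, Gls2, Hal and Sds were higher, while Otc (-0.21, edgeR adjusted p = 0.0819) and Nags (-0.18, edgeR adjusted p = 0.276) lost their call and Cps1 turned to 0.07. Without the deviating libraries, 4 members were called (2 higher, 2 lower). With low-risk 24 left out, Nags stood at -0.47, Otc at -0.47 and Sds at 0.90, all still called. Without the low-count filter Sds lost its call (0.78, edgeR adjusted p = 0.117).

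**Figure D2:**
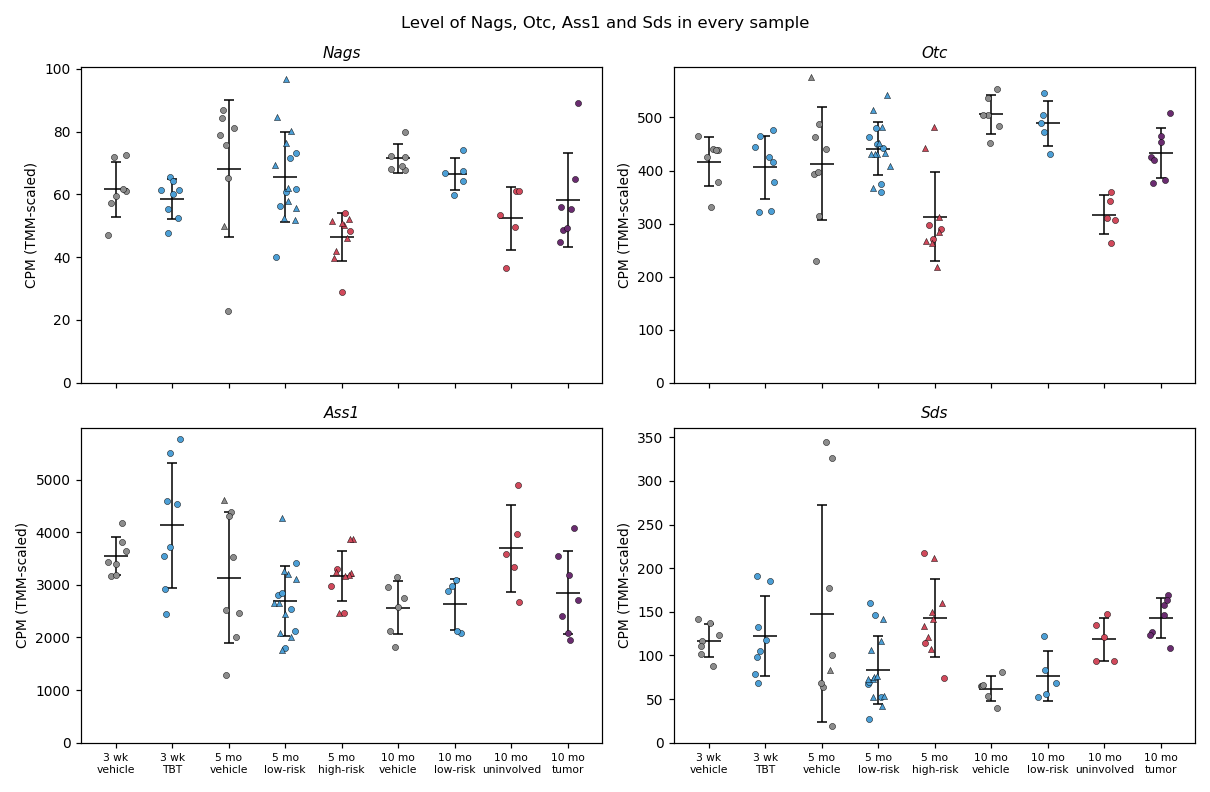
Level of Nags, Otc, Ass1 and Sds (TMM-scaled CPM) in every sample of 9 groups, with mean and SD; circles are sequencing batch 1 and triangles batch 2. Otc of the 5 uninvolved livers lies between 264.0 and 360.0 CPM, below all vehicles and low-risk livers of 10 months.

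Set against 5-month vehicles, high-risk livers held less Cps1, Nags and Otc. The log2 fold changes were -0.54 for Cps1 (SE 0.18, edgeR adjusted p = 0.039), -0.58 for Nags (SE 0.18, edgeR adjusted p = 0.0225) and -0.47 for Otc (SE 0.14, edgeR adjusted p = 0.021), 3 of 10 members against 15.8% of all genes (8.47% higher, 7.38% lower). No member was called in low-risk livers against vehicles, where edgeR called 0% of genes; 1 member had an unadjusted p under 0.05 and DESeq2 called 0 members. The 3 high-risk calls against vehicles were lost in batch 1 alone, with total-count scaling, without the low-count filter or with only those groups in the fit. Batch 1 held 7 of the vehicles and 3 high-risk livers, and batch 2 held 1 vehicle and 7 high-risk livers. The batch 2 vehicle held 13580 CPM of Cps1, 576.4 of Otc and 49.8 of Nags. Batch 1 vehicles averaged 7473, 389.6 and 70.8 CPM.

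At 10 months the pattern of uninvolved livers against low-risk livers again had Otc and Nags lower and Sds higher, and Ass1 was higher as well. These 4 of 10 members passed the test, against 52.4% of all 16338 genes tested (27.7% higher, 24.7% lower). The median log2 fold change of the 10 genes was 0.14, beside 0.05 over all genes.

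Otc stood at 489.6, 504.9, 545.9, 473.3 and 431.4 CPM in the low-risk livers and at 306.0, 264.0, 360.0, 343.4 and 309.7 CPM in the uninvolved livers. The highest uninvolved liver was below the lowest low-risk liver. Otc was lower, its log2 fold change being -0.64 (SE 0.10, edgeR adjusted p = 4.11e-05). It was called in each alternative run, total-count scaling included (-0.39, edgeR adjusted p = 0.0027).

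Nags stood at 66.8, 64.1, 74.1, 67.3 and 59.9 CPM in low-risk livers and at 36.5, 53.5, 49.5, 61.2 and 61.02 CPM in uninvolved livers. Uninvolved livers 1, 3 with 6, and 5 were below every low-risk liver, and the ranges overlapped. Nags was lower, its log2 fold change being -0.36 (SE 0.11, edgeR adjusted p = 0.0123). Without uninvolved liver 1 the log2 fold change of Nags was -0.23 (edgeR adjusted p = 0.0348), and with total-count scaling it was -0.12 (edgeR adjusted p = 0.231).

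Ass1 stood at 2887, 3090, 2977, 2086 and 2132 CPM in low-risk livers and at 2674, 3965, 3344, 3589 and 4902 CPM in uninvolved livers. All uninvolved livers but number 1 exceeded every low-risk liver. Ass1 was higher, its log2 fold change being 0.47 (SE 0.18, edgeR adjusted p = 0.0306). The call rested on single livers: the edgeR adjusted p of Ass1 was 0.0795 without low-risk 9, 0.0757 without low-risk 10 and 0.0766 without uninvolved 12.

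Sds stood at 83.5, 122.7, 68.8, 56.3 and 51.98 CPM in low-risk livers and at 93.99, 147.9, 134.5, 94.0 and 120.9 CPM in uninvolved livers. All 5 uninvolved livers lay above the low-risk median, while low-risk 4 fell among them. Sds was higher, its log2 fold change being 0.61 (SE 0.22, edgeR adjusted p = 0.027). Its edgeR adjusted p was 0.0638 without low-risk 8, 0.0702 without low-risk 9, 0.0693 without low-risk 10, 0.0629 without uninvolved 3 and 6, 0.0544 without uninvolved 5, and 0.0839 unfiltered. Gm15690, on the opposite strand, was higher by 1.47 (SE 0.37), whereas Plbd2 had a log2 fold change of 0.22 (SE 0.14) that did not pass.

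The remaining members had log2 fold changes of 0.40 (Hal, SE 0.20), 0.38 (Gls2, SE 0.16), 0.20 (Asl, SE 0.21), 0.08 (Arg1, SE 0.16), -0.29 (Slc25a15, SE 0.13) and -0.31 (Cps1, SE 0.17) in that comparison, and none was called. Total-count scaling, which moved the median of all genes to 0.30, changed the split from 2 higher and 2 lower to 5 higher and 1 lower. The 5 were Ass1, Asl, Gls2, Hal and Sds, and Otc alone was lower. With the tumor-labelled vehicle library added to the vehicles, which share the fit, 2 members were called, and Ass1 (edgeR adjusted p = 0.0595) and Nags (0.0924) were not.

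Against 10-month vehicles, uninvolved livers had 7 of 10 members called, beside 57.7% of all genes (31.2% higher, 26.5% lower). Otc, Cps1, Nags and Slc25a15, the mitochondrial steps of the cycle and their carrier, were lower. Otc of vehicles lay between 451.6 and 553.1 CPM (median 504.6), above all uninvolved livers, and its log2 fold change was -0.69 (SE 0.09, edgeR adjusted p = 9.26e-06). The log2 fold changes were -0.53 for Cps1 (SE 0.17, edgeR adjusted p = 0.0115), -0.46 for Nags (SE 0.11, edgeR adjusted p = 0.00147) and -0.44 for Slc25a15 (SE 0.12, edgeR adjusted p = 0.00559).

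Ass1 (0.52, SE 0.17, edgeR adjusted p = 0.0137), Sds (0.92, SE 0.21, edgeR adjusted p = 0.00132) and Gls2 (0.37, SE 0.15, edgeR adjusted p = 0.0428) were higher. Sds of vehicles ran from 39.8 to 81.5 CPM (median 65.2), below all 5 uninvolved livers. Gls2 was called by a narrow margin and lost its call without uninvolved 3 and 6 (edgeR adjusted p = 0.055), 5 (0.059), 7 (0.0593) or 12 (0.128), without low-risk 2 (0.0585) or 8 (0.056), and unfiltered (0.0641). With the tumor-labelled library added to the vehicles, Ass1, Cps1, Gls2 and Nags lost their calls, at an edgeR adjusted p of 0.0506, 0.0509, 0.0516 and 0.0785. Gls2 shares 2.79% of its exon bases with the opposite-strand gene Spryd4, which was lower there (-0.23, SE 0.10). With total-count scaling Otc was still lower (-0.36, edgeR adjusted p = 0.00253), and Cps1, Nags and Slc25a15 lost their calls. The comparison shares its uninvolved livers with the one above. Low-risk livers against vehicles had 0 members called, 0 with an unadjusted p under 0.05 and 0 by DESeq2, beside 0% of all genes.

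**Figure D3:**
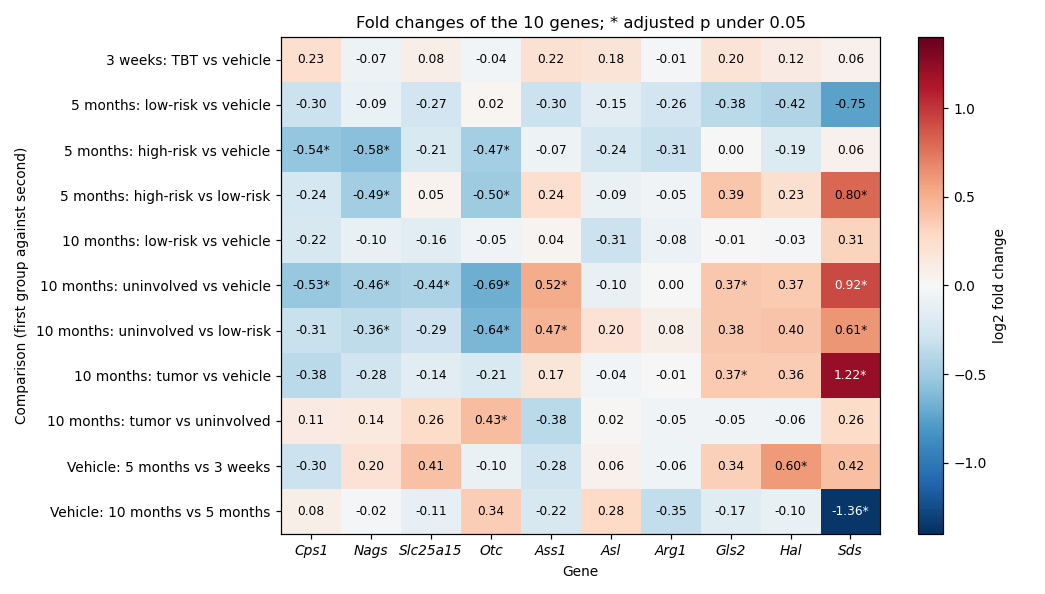
Log2 fold change of each gene (columns) in 11 comparisons (rows), colored from blue (lower) to red (higher); a star marks an edgeR adjusted p under 0.05. Otc (-0.50) and Nags (-0.49) are negative for high-risk against low-risk at 5 months, as they are for uninvolved against low-risk at 10 months (-0.64 and -0.36).

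The risk difference at 5 months was set against that at 10 months by an interaction contrast. No member passed it, where 0.448% of 16084 genes did (0.267% lower); 0 members had an unadjusted p under 0.05 and DESeq2 called 0. The change ran from -0.34 (Slc25a15, SE 0.18) to 0.30 (Asl, SE 0.30). It was -0.15 for Otc (SE 0.19), 0.14 for Nags (SE 0.21) and -0.18 for Sds (SE 0.41). On simulated counts for this contrast, edgeR recovered 30 of 100 genes changed 2-fold, and the changes of the members were smaller than that. The lack of calls therefore does not show that the risk difference was alike at both ages.

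In tumors, Otc was higher than in uninvolved liver, and no other member passed the test. The tumors held 507.8, 382.4, 465.2, 424.9, 452.9, 420.6 and 376.6 CPM of Otc, all above the 5 uninvolved values. The log2 fold change was 0.43 (SE 0.12, edgeR adjusted p = 0.0216), 1 of 10 members beside 18.1% of all genes (7.55% higher, 10.5% lower). The tissues of 6 mice could be paired, and with mice 3 and 6 averaged into 1 pair, since their uninvolved livers count as 1 sample, Otc was higher in the tumor in 5 of 5 pairs, by 0.28 to 0.73 on the log2 scale. With the mouse as a block and without mice 3 and 6 the log2 fold change of Otc was 0.44 (edgeR adjusted p = 0.0485), and with both kept as separate mice it was 0.50 (SE 0.10, edgeR adjusted p = 0.021).

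Ass1 had the opposite sign, its log2 fold change being -0.38 (SE 0.20, edgeR adjusted p = 0.191) that did not pass, and was lower in the tumor in 4 of these 5 pairs. Mouse 12 stood apart from the others, at -1.33 for Ass1 and -0.83 for both Gls2 and Hal. For every member but Otc, Ass1 included, tumor-minus-uninvolved differences were of mixed sign. Cps1, Nags, Slc25a15 and Gls2 were higher in the tumor in 4 of 5 pairs, and Asl, Arg1, Hal and Sds in 3 of 5.

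**Figure D4:**
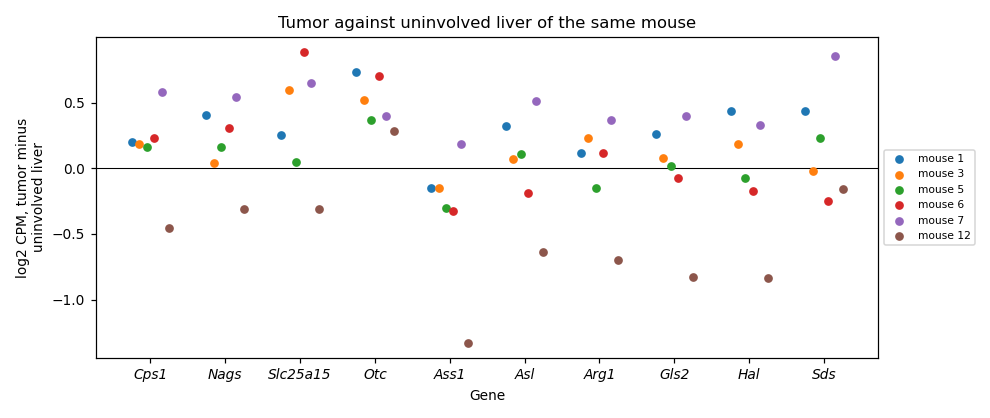
Log2 CPM of the tumor minus that of uninvolved liver of the same mouse, for each gene, with 1 colored point per mouse (6 mice; the uninvolved livers of mice 3 and 6 count as 1 sample elsewhere). All points of Otc lie above 0, from 0.28 to 0.73, and Ass1 of mouse 12 is the lowest at -1.33.

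Against vehicles, tumors held more Sds and Gls2, 2 of 10 members beside 45.9% of all genes (24.8% higher, 21% lower). Sds of tumors ran from 108.6 to 169.8 CPM (median 146.8), above the highest vehicle at 81.5 CPM, its log2 fold change being 1.22 (SE 0.15, edgeR adjusted p = 2.83e-05). Gls2 had 0.37 (SE 0.14, edgeR adjusted p = 0.0474), which was lost without tumor 3 (0.0756), tumor 5 (0.0682), tumor 6 (0.0545) or tumor 7 (0.0693). Otc, at -0.21 (SE 0.08, edgeR adjusted p = 0.0542), missed the threshold. With total-count scaling, which moved the median of all genes to 0.29, Ass1, Gls2, Hal and Sds were higher and no member was lower.

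At 3 weeks, when exposure ended, no member differed by the test between TBT and vehicle mice. Edge values of the log2 fold change were 0.23 for Cps1 (SE 0.16) and -0.07 for Nags, and edgeR called 0% of 14050 genes. None of the members had an unadjusted p under 0.05, and DESeq2 called 0 of them. Cps1 ran from 6084 to 11120 CPM in vehicles and from 6621 to 13530 CPM in TBT livers. Without TBT mouse 4 the count of members called was also 0.

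From 3 weeks to 5 months, vehicle livers gained Hal. Between 5 and 10 months its log2 fold change was -0.102 (SE 0.165) and was not called. The level of Hal ran from 255.1 to 335.6 CPM (median 309.6) at 3 weeks. At 5 months it ran from 243.6 to 657.6 CPM (median 460.2) over all 8 vehicles, of which the test used the 7 of batch 1. The log2 fold change in batch 1 was 0.60 (SE 0.16, edgeR adjusted p = 0.0083), 1 of 10 members beside 24.2% of all genes (11.9% higher, 12.3% lower). Without the deviating libraries Nags (0.29) and Slc25a15 (0.53) were called as well. Total-count scaling moved the median of all genes to -0.15 and left Hal at 0.45 (edgeR adjusted p = 0.064).

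From 5 to 10 months Sds fell by 1.36 on the log2 scale (SE 0.42, edgeR adjusted p = 0.0383), 1 of 10 members beside 14.1% of genes (6.68% higher, 7.41% lower). In 5-month vehicles it was the most scattered member, from 19.5 to 344.9 CPM (median 92.2), and the 10-month vehicles were all within that range. Vehicles 4 and 6 of 5 months stood at 325.9 and 344.9 CPM. The lowest value was that of vehicle 9, a deviating library, and the next lowest was 64.3 CPM. Vehicles 5 and 6 of 10 months, at 39.8 and 53.2 CPM, lay below the latter. The call for Sds was lost without the low-count filter (edgeR adjusted p = 0.0695) and with the tumor-labelled library added (0.069).

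Within groups the members varied together. On log2 CPM centred on group and batch, over 71 samples, all 45 pairs of members had a positive Pearson correlation, with a median of 0.61 and a range from 0.20 (Otc with Slc25a15) to 0.85. Gls2 had the highest median with the other members (0.77) and Otc the lowest (0.38). By rank (Spearman) the correlations ran from 0.10 (Otc with Slc25a15) to 0.83 (Ass1 with Gls2). Vehicle 9 of 5 months, a deviating library, was the lowest of its group for every member and entered all pairs. Whether other genes varied together in the same way was not tested. These samples share scaling and library quality, and the values are descriptive.

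The lists of related genes that follow were also chosen with earlier results of these data known. They are read against the same shares of all genes, 38.9% called in 5-month high-risk and 52.4% in uninvolved livers, each against low-risk livers. The list for the other end of the lobule holds ammonia-scavenging genes and other perivenous genes. Of its 9 genes, 7 (77.8%) were lower and 0 higher in 5-month high-risk livers, beside 18.5% of all genes lower, with a median log2 fold change of -1.68. Glul, which makes glutamine, had a median of 1157 CPM in low-risk and 242.4 CPM in high-risk livers, and the highest high-risk liver (730.5 CPM) lay below the lowest low-risk liver (791.2 CPM). Its log2 fold change was -1.90 (SE 0.26, edgeR adjusted p = 6.85e-07). Cyp2e1 (-2.18, SE 0.32) and Cyp1a2 (-2.06, SE 0.28), drug-metabolising enzymes of that zone, were lower too.

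In 10-month uninvolved livers, 5 of the 9 perivenous genes were lower and 0 higher, with a median of -0.71. That is 55.6% called, near the 52.4% of all genes, of which 24.7% were lower. They included Oat (-1.47, SE 0.20), which turns ornithine to glutamate, Cyp1a2 (-1.28, SE 0.20), Cyp2e1 (-1.01, SE 0.28) and Glul (-0.95, SE 0.24). Oat ran from 740.0 to 1197 CPM in low-risk and from 212.8 to 457.2 CPM in uninvolved livers. Under total-count scaling 6 and 4 of the 9 were lower at the respective ages. Tumors against uninvolved livers had 0 of 9 called, 0 with an unadjusted p under 0.05 and 0 by DESeq2, and Glul of tumors spread from 188.7 to 2033 CPM. In vehicles, Oat (1.80, SE 0.24) and Slc1a2 (0.93, SE 0.20), a glutamate transporter, rose from 3 weeks to 5 months.

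**Figure D5:**
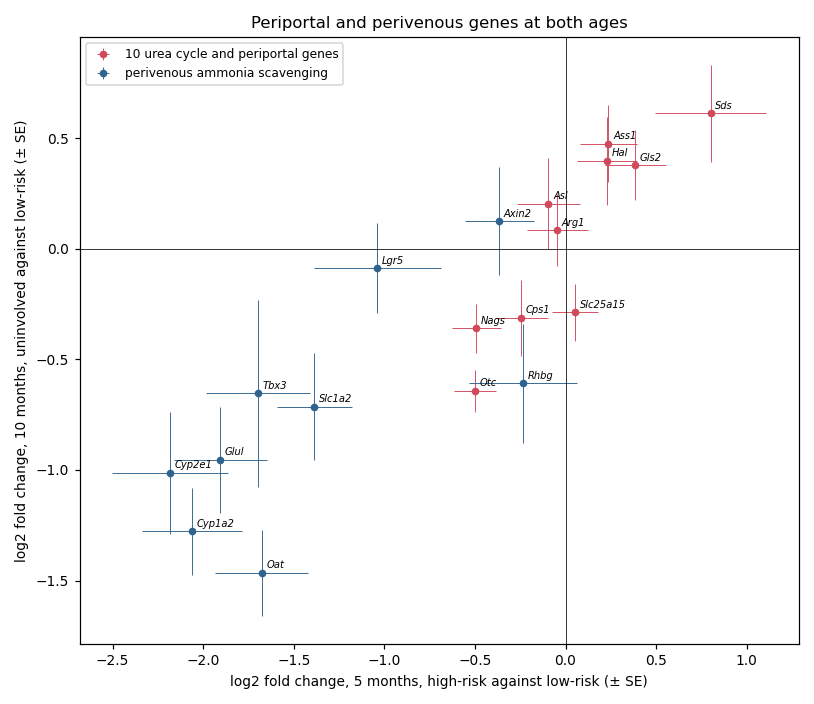
Log2 fold change with SE of the 10 genes (red) and perivenous genes (blue), at 5 months (x axis, high-risk against low-risk) and 10 months (y axis, uninvolved against low-risk). Perivenous genes other than Axin2 are negative on both axes (Glul -1.90 and -0.95), as are Otc, Nags and Cps1 among the 10 genes.

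Nitrogen supply genes were called in both directions. Of 17 such genes, 2 were higher and 4 lower in 5-month high-risk livers, and 2 were higher and 5 lower in uninvolved livers. These shares, 35.3% and 41.2%, lie below those of all genes. Car5a, the mitochondrial carbonic anhydrase that provides bicarbonate to Cps1, was lower at 5 months (-1.63, SE 0.24) and at 10 months (-1.38, SE 0.09). Its level ran from 38.4 to 48.9 CPM in 10-month low-risk livers and from 15.96 to 18.9 CPM in uninvolved livers, with no overlap.

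Glud1, which releases ammonia from glutamate, was lower in uninvolved livers (-0.96, SE 0.10) and higher in tumors than in uninvolved livers (0.45, SE 0.10). Slc7a2, a transporter of cationic amino acids, was higher in 5-month high-risk livers (0.73, SE 0.16), and Aspa was higher in tumors than in uninvolved livers (0.56, SE 0.16). From 3 weeks to 5 months in vehicles, Slc25a22 (0.76) and Slc38a3 (0.61) rose. With total-count scaling the supply genes split into 5 higher and 1 lower at 5 months and into 6 higher and 4 lower at 10 months.

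Other periportal genes did not share a direction. Of 15, 6 were higher and 3 lower at 5 months in high-risk against low-risk livers, and 6 were higher and 5 lower at 10 months, or 60.0% and 73.3% called. Gpx3, a secreted glutathione peroxidase, was higher at both ages (2.31, SE 0.25, and 2.90, SE 0.18) and lower in tumors than in uninvolved livers (-0.94, SE 0.18). Etnppl, which breaks down phosphoethanolamine, was higher at 5 months (1.32, SE 0.26) and Pigr, the receptor that carries IgA into bile, was lower (-1.50, SE 0.33). Sox9, which also marks bile duct cells, was higher in uninvolved livers (1.60, SE 0.25), as was the steroid enzyme Hsd17b6 (1.59, SE 0.31). In vehicles from 3 weeks to 5 months Pigr (2.802) and Sox9 (1.25) rose and Hsd17b6 fell by 1.26 on the log2 scale. Total-count scaling gave 8 higher and 2 lower at 5 months and 7 higher and 2 lower at 10 months.

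Of 24 amino acid catabolism genes, 3 were higher and 12 lower in 5-month high-risk livers (62.5% called), with a median of -0.37. Prodh, the proline dehydrogenase, led the lower ones (-1.34, SE 0.21), with Bhmt (-1.03, SE 0.26) and Dmgdh (-1.001, SE 0.14) of the betaine pathway. In uninvolved livers 2 were higher and 7 lower, 37.5% called and so below the share of all genes: Dmgdh was again lower (-0.69, SE 0.12), while Sdsl (0.68, SE 0.18), a relative of Sds, and Tat (0.61, SE 0.23), which degrades tyrosine, were higher. Agxt2 alone passed in tumors against uninvolved livers (0.48, SE 0.10). Total-count scaling turned these splits to 5 higher and 7 lower at 5 months and 8 higher and 3 lower at 10 months.

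Among 16 regulators known to act on these genes, 2 were higher and 10 lower in 5-month high-risk livers (75.0% called). Cebpa, a transcription factor required for urea cycle enzymes in mouse liver, was lower at 5 months (-0.95, SE 0.19) and in uninvolved livers (-0.98, SE 0.11), and higher in tumors than in uninvolved livers (0.39, SE 0.13). Ppara was lower at both ages (-0.93, SE 0.20, and -0.94, SE 0.11), and the glucagon receptor Gcgr was lower at 5 months (-0.89, SE 0.16). In uninvolved livers 3 were higher and 6 lower, a share (56.3%) near that of all genes, and Cebpd was higher (1.10, SE 0.19). Onecut1 was lower in tumors than in uninvolved livers (-0.97, SE 0.28). In vehicles Ppargc1a fell by 1.10 from 3 weeks to 5 months and Gcgr rose by 0.54. Total-count scaling gave 3 higher and 4 lower at 5 months and 5 higher and 4 lower at 10 months.

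Markers of cell types moved between the same groups. In 5-month high-risk against low-risk livers, 6 of 8 hepatocyte markers were lower (median -0.73), and 5 of 7 cholangiocyte, 6 of 8 stellate cell and 6 of 6 proliferating cell markers were higher. Macrophage markers split into 3 higher and 2 lower of 8, and endothelial markers into 1 higher and 3 lower of 6. In uninvolved livers 5 of 8 hepatocyte markers were lower (median -0.40), and 7 of 7 cholangiocyte, 5 of 8 stellate cell and 6 of 6 proliferating cell markers were higher. Of 8 macrophage markers 5 were lower, among them Timd4 (-3.04) and Marco (-2.30) of resident macrophages, and 2 were higher, and of 6 endothelial markers 2 were lower and 2 higher. The stellate cell marker Lrat was lower at both ages (-0.65 and -0.56). Of 6 B and plasma cell markers 2 and 1 were higher at the respective ages, and of 5 erythrocyte markers 1 was lower at each. These splits and the sums below use TMM. Total-count scaling moved the median of all genes to 0.30 at both ages, and marker splits under it are not reported here. Summed hepatocyte markers ran from 129700 to 143500 CPM in 10-month low-risk livers and from 80290 to 112100 CPM in uninvolved livers, with 0 of 8 at 0. Mitochondrial counts made up 2.94% to 3.08% in those low-risk livers and 4.20% to 5.84% in uninvolved livers. Their part in the differences of Otc, Nags, Ass1 and Sds was not tested, and in bulk tissue fewer cells of a type and less RNA per cell cannot be told apart.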

How the data were processed

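Liver total RNA was made into TruSeq stranded libraries, per the labels' protocols. The authors deposited whole-number counts for 55536 genes in 75 libraries, with no gene length or depth scaling; the file name says that ComBat-seq was used to adjust for batch. The submitters' processing notes name Trim Galore, HISAT2, featureCounts and mm10; versions, strand setting and ComBat-seq settings are not given in the sources used here.

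Libraries of 3-week vehicle mouse 3 were summed, as were uninvolved livers 3 and 6. Tests used edgeR 4.0.16 in R 4.3.3 (TMM, filterByExpr, robust quasi-likelihood F test, Benjamini-Hochberg over all genes tested, threshold 0.05), with groups of an age in 1 fit, batch as a covariate for the 5-month libraries, tumors fitted with uninvolved livers or vehicles alone, and ages among batch 1 vehicles. Batch 2 held only 5-month libraries. The SE is that implied by F. DESeq2 1.42.0, other scalings, filters, batches and left-out samples were alternatives. Total-count scaling, protein-coding genes only, each tumor or low-risk 24 left out and the block without mice 3 and 6 were chosen after seeing the data. TPM used union exon lengths from GENCODE M21.

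Pairing in the tumor against uninvolved comparison comes from mouse numbers: deviations of same-numbered samples correlated at -0.13 to 0.45. Elsewhere a number names different mice. On simulated counts for that comparison (16362 genes), edgeR recovered 59 of 100 genes changed 2-fold and 90 of 100 changed 4-fold, with 8 false calls. Only these 200 genes were changed, by more than any member there (Otc, 0.435 on the log2 scale). The rates thus do not cover changes of the members' size.

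The members and gene lists were chosen with earlier results of these data known. Named genes were all members, Glul and, for each list, up to 3 called genes with the largest log2 fold change. Some genes that this rule names are not reported here. Total counts of 2.832 to 45.449 M per library set the counting precision.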

Additional observations from a re-analysis of the deposited data

Results flagged for a closer look

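Over 80 sets of samples (10 genes in 8 groups), 6 held a sample whose gap to its neighbor was large against the range of its group (Dixon's criterion at 95%), where chance gives about 1 in 20. Tumor 7 was the highest of the 7 tumors for 9 of the 10 genes, all but Otc, and met this criterion for 4 of them: Cps1 at 9868 CPM (next 6619), Asl at 1040 CPM (next 529.5), Arg1 at 1919 CPM (next 1273) and Hal at 1009 CPM (next 555.3). Nags reached 79.8 CPM in 10-month vehicle 4 (next 72.2), and Slc25a15 was at 251.5 CPM in 3-week vehicle 5 (next 338.7).

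The 10-month vehicle library labelled as a tumor was in no comparison. It held 3216 CPM of Ass1 and 85.4 CPM of Sds, above the highest of the 6 other vehicles (3142 and 81.5 CPM). Its Otc (376.9 CPM), Cps1 (5398 CPM), Asl (298.6 CPM), Nags (34.96 CPM) and Slc25a15 (325.1 CPM) were below the lowest of them. This library had 14.06% mitochondrial counts, against 3.14% to 3.83% in those 6.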

How the results depend on the processing

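No member's call changed sign in any alternative run. Members called in 5-month high-risk against low-risk livers numbered 3, with 5 under total-count scaling and 0 in batch 1 alone. Against vehicles the 3 calls fell to 0 without the low-count filter, with total-count scaling, in batch 1 alone, with only the groups compared or with the replicate block (shared numbers of different mice, 3 of them), and to 1 with no batch covariate. In uninvolved livers, taking the tumor-labelled library as vehicle gave 2 calls in place of 4 against low-risk livers and 3 in place of 7 against vehicles; leaving out each sample gave 2 to 6 and 6 to 8. Tumors against vehicles had 2 calls, with 4 under total-count scaling, 1 with that library and 1 to 3 without each tumor. Vehicle ages had 1 call each. From 3 weeks to 5 months it became 0 with total-count scaling and 3 with the replicate block or without deviating libraries. From 5 to 10 months it became 0 without the filter, with the replicate block or with the tumor-labelled library, and 2 with DESeq2, total-count scaling, protein-coding genes only or without deviating libraries. The replicate block cost Cps1 (edgeR adjusted p = 0.0595) and Gls2 (0.121) their calls in uninvolved livers against vehicles.

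Calls over all genes moved by more than 1.5 times in these cases. High-risk against low-risk gave 5745, and 773 in batch 1. High-risk against vehicles gave 2341, with 1211 unfiltered, 4947 under total-count scaling, 1338 with only those groups and 0 with the block or in batch 1. Uninvolved against vehicles gave 9427, and 6019 with the tumor-labelled library. Tumors against uninvolved livers gave 2961, with 1920 in the block, 5346 in a fit of all 10-month groups, 1610 for protein-coding genes, and 1580, 1590 and 1611 without uninvolved 1, 5 and 7. Tumors against vehicles gave 7016, with 3972 in the block and 4206 with that library. Vehicle ages gave 3616 (2172 unfiltered, 5757 without deviating libraries) and 2107 (1128, 3438 by DESeq2, 671 with that library, 3700 without deviating ones). The interaction gave 72, from 4 unfiltered to 231 by DESeq2. The 3-week and both low-risk against vehicle comparisons gave 0, and at most 3, 52 and 1. The cause was not tested.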
